A study of Mus musculus with 2 samples.

Results

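The genes of the proteasome were examined for binding of EP300 in stomach of newborn mice. They are the protein-coding genes of GENCODE release M21 whose symbol starts with Psma, Psmb, Psmc, Psmd, Psme, Psmf or Psmg followed by a digit, and there are 50 of them among 21951 protein-coding gene records. The choice rests on the symbol alone and used no measured value. EP300 is a histone acetyltransferase and transcriptional co-activator, and its position on the genome was read from immunoprecipitated chromatin (ChIP-seq) of whole stomach tissue, strain B6NCrl, postnatal day 0, sex not collected. The 2 libraries are biological replicates 1 and 2 of 1 group, and no other tissue, age, genotype or treatment was compared. Since their labels name a single biosample and a single donor, how much animals vary cannot be read from them. Whole stomach mixes epithelium, muscle, stroma, nerve and blood cells, and the peak lists do not say which of them carried a peak. The text therefore describes counts and levels, and no test between groups of samples could be made.

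The proteasome is the protease that degrades proteins tagged with ubiquitin. Its barrel, the 20S core, is a stack of rings of alpha (Psma) and beta (Psmb) subunits, and the catalytic sites lie on the beta subunits Psmb5, Psmb6 and Psmb7. The 19S cap recognises and unfolds substrates with a ring of ATPases (Psmc) and a set of non-ATPase subunits (most Psmd genes). Further members are dedicated assembly chaperones (Psmg1 to Psmg4, Psmd5, Psmd9 and Psmd10), alternative activators of the core (Psme genes) and an inhibitor (Psmf1). Every cell needs the constitutive subunits, and their genes are known to be induced together by the transcription factor Nfe2l1 when proteasome activity falls. Psmc3ip matches the rule by its symbol, but encodes a factor of meiotic recombination and is not a proteasome subunit.

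Peak strength is given as the signal value deposited with each peak. The lists are scaled differently, so genes are ranked within 1 list, and where values of the libraries stand side by side their ratio includes any difference of scale. The main set holds 7737 peaks and is named by the authors as the optimal set thresholded by the irreproducible discovery rate (IDR). The conservative set is the other list filtered by IDR that the authors deposited. Of these, 7733 lay on the named chromosomes, with a median signal of 30.2. The lists of replicate 1, replicate 2 and the pooled reads hold 300000 peaks each, most of them weak. Read counts are not in these files, so depth is unknown.

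A minority of proteasome genes had an optimal EP300 peak at the start. In the optimal set, 7 of the 50 genes had a summit within 1 kb of the start of their gene record (14.0%, exact 95% binomial interval 5.82 to 26.7, counting error only), namely Psmb1, Psmb2, Psmb3, Psmd1, Psmd12, Psme3 and Psmg2. Over all protein-coding genes the share was 10.1%. An eighth gene, Psmd5, was missed by this count because its gene record starts at a non-coding transcript. Counted from any coding transcript start, 8 of 50 had a summit (16.0%), beside 11.2% of all protein-coding genes. The proteasome share was thus near the background by either start.

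By role, the summits within 1 kb of a coding start fell on 3 of the 7 constitutive beta subunits, 2 of the 11 non-ATPase subunits of the cap, 2 of the 7 assembly chaperones and 1 of the 5 activators. None of the 7 constitutive alpha subunits and none of the 6 cap ATPases had one. The same held for the immunoproteasome subunits Psmb8, Psmb9 and Psmb10, the thymus subunit Psmb11, the testis subunit Psma8 and the inhibitor Psmf1. Over all protein-coding genes 11.2% had such a summit, and at that share a group of 6 or 7 genes often has none. Groups of this size differ by a few genes only, and the difference between roles was not tested. The catalytic subunits Psmb5, Psmb6 and Psmb7 were all among the genes without a summit at the start.

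**Figure D1:**
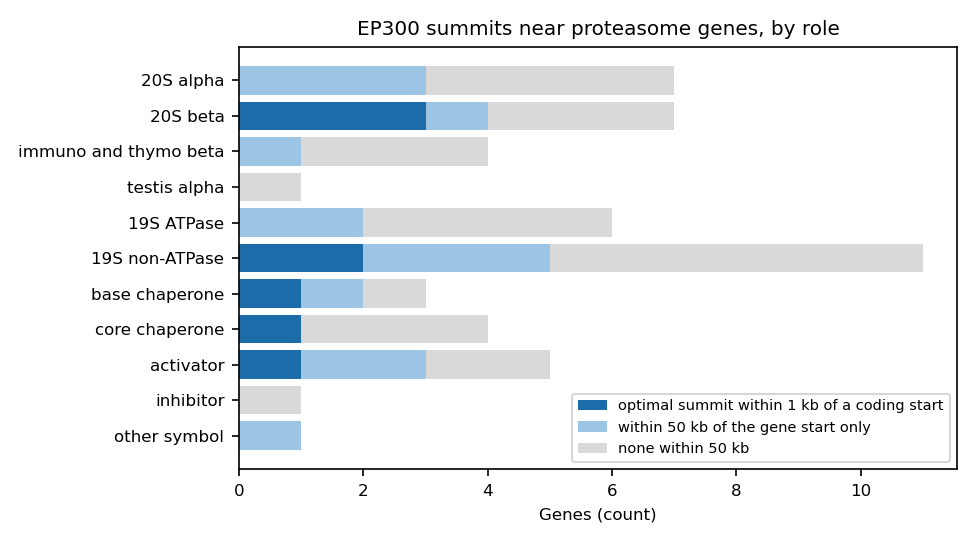
Number of proteasome genes (x axis, count) in each role (y axis) with an optimal EP300 summit within 1 kb of a coding transcript start, with one within 50 kb of the gene start only, or with none within 50 kb. The beta subunits hold 3 genes of the first kind, and the alpha subunits and cap ATPases hold none. Of all protein-coding genes, 11.2% are of the first kind, and the difference between roles was not tested.

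The strongest EP300 peak at a proteasome gene lay at Psmd5, a chaperone that helps to assemble the base of the cap (ENSMUSG00000026869.12, mm10 chromosome 2, 34849734 to 34874968, minus strand). The peak (34870819 to 34871250) ranked 4 among all optimal peaks and had a signal of 401.8 there. Its signal was 191.1 in replicate 1 and 219.1 in replicate 2, where it ranked 6 and 3 in the full lists. The summit lay 67 bp upstream of the coding start at 34870962, and 3939 bp inside the gene record, outside the exons of coding transcripts. A further summit with the same peak borders, 271 bp upstream of the coding start, had a signal of 83.7. The nearest gene record start to both summits was that of Cutal, on the opposite strand.

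The second strongest lay at Psmb2, a non-catalytic beta subunit (ENSMUSG00000028837.8, chromosome 4, 126677630 to 126709714, plus strand). Its peak (126677340 to 126677899) had a signal of 156.9 and rank 95 in the optimal set, with 68.9 in replicate 1 and 94.0 in replicate 2. The summit lay 10 bp upstream of the gene start, outside the gene. An overlapping optimal peak (126677539 to 126678098) had its summit 189 bp downstream, on a coding exon, with a signal of 34.7, and matched the same peaks of the libraries. Psmd5 and Psmb2 thus stood highest among the proteasome genes in both libraries.

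The 151 bp around the strongest summit of these genes are shown because both hold the palindromic element TCTCGCGAG, which the next paragraphs follow through the promoter peaks. The sequences are those of the reference genome (GRCm38.p6, the assembly called mm10) on the strand of the gene, and the capitals mark the matches to the 15 motifs searched.

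Psmd5, chr2:34870954-34871104: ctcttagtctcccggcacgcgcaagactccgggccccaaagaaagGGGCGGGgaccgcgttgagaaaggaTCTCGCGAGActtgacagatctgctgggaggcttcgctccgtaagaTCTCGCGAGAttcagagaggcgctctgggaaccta

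Psmb2, chr4:126677545-126677695: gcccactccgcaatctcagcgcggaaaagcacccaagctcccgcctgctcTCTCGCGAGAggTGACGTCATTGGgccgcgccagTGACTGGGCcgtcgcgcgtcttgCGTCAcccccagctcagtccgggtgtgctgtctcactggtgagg

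Counted from the first base shown, Psmd5 had the element at positions 71 to 80, across the summit, and again at 117 to 126, ahead of the coding start at position 143. A KLF and SP match, GGGCGGG, stood at 46 to 52. Psmb2 had the element at positions 51 to 60, 16 bp from the summit, and the gene start at position 86. Next to it came the cyclic AMP response element TGACGTCA at 63 to 70 and, overlapping its last base, the NF-Y motif CCAAT on the opposite strand at 70 to 74. A match to the antioxidant response element TGACNNNGC stood at 85 to 93, at the gene start. This element is the one that Nfe2l1 and small Maf proteins are known to bind, and the palindrome is known as a recognition element of BANP and of ZBTB33.

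Across the series, promoter peaks with the palindrome were the stronger ones, and the peaks of Psmd5 and Psmb2 are among those counted. The motif was chosen with earlier results of these data known, and the split by strength after its values were seen. The shares below thus describe these peaks and are no independent support. Of the 2952 optimal peaks with a summit within 1 kb of a coding start, 185 (6.27%) held TCTCGCGAG on either strand within 100 bp of the summit. The share was 58 of 92 (63.0%) among those in the strongest 100 optimal peaks, 105 of 511 (20.5%) from there to rank 1000, and 22 of 2349 (0.937%) further down. The median signal was 103.5 with the palindrome (quartiles 69.7 and 166.4) and 30.9 without (quartiles 23.1 and 42.2). The match is a description of letters, and binding by either factor was not measured. Of the other proteasome genes with a summit at the start, none held it there. Within 50 kb of a proteasome gene, 1 further summit held it, 16965 bp downstream of the Psmc5 start with a signal of 46.6, but that summit was nearest to the start of Smarcd2.

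**Figure D2:**
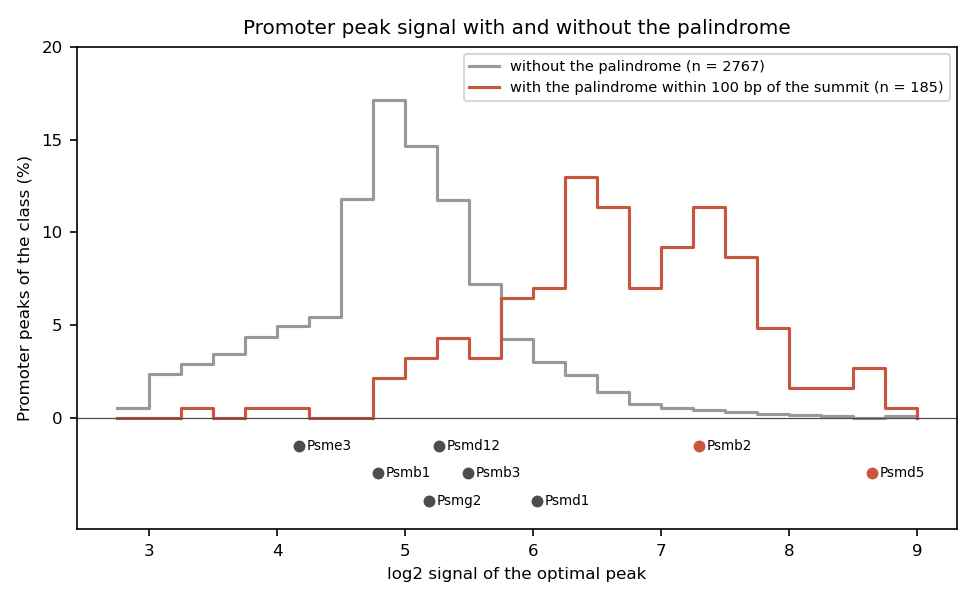
Signal (x axis, log2) of optimal promoter peaks with the palindrome within 100 bp of the summit (n = 185) and without it (n = 2767), as the percent of peaks of each class (y axis). Points under the axis mark the strongest promoter peak of the 8 proteasome genes, and Psmd5 and Psmb2, at the right, are those with the palindrome.

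The other cap genes with a summit at the start were Psmd1 and Psmd12. Psmd1 encodes a scaffold subunit of the base (ENSMUSG00000026229.17, chromosome 1, 86064387 to 86139151, plus strand). Its peak (86064247 to 86064806) had a signal of 65.4, with 22.9 in replicate 1 and 36.6 in replicate 2. The summit lay 140 bp downstream of the gene start, outside the exons of coding transcripts, and 92 bp upstream of the nearest coding transcript start. The libraries ranked this peak 1912 and 426, so replicate 2 placed it well above replicate 1. Psmd12, a subunit of the lid (ENSMUSG00000020720.13, chromosome 11, 107479484 to 107504362, plus strand), had a peak (107479148 to 107479707) with a signal of 38.5, with 18.97 in replicate 1 and 15.9 in replicate 2. Its summit lay 56 bp upstream of the start, and an overlapping peak with its summit 150 bp downstream had a signal of 10.2. None of the 15 motifs matched within 75 bp of the Psmd1 summit, while that of Psmd12 had 2 KLF and SP matches.

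The other beta subunits with a summit at the start were Psmb3 and Psmb1, both non-catalytic. Psmb3 (ENSMUSG00000069744.7, chromosome 11, 97703399 to 97713500, plus strand) had a peak (97703077 to 97703636) with a signal of 44.9, with its summit 42 bp upstream of the start. The libraries placed it at different ranks, 736 in replicate 1 with a signal of 31.1 and 6325 in replicate 2 with 14.3. Psmb1 (ENSMUSG00000014769.10, chromosome 17, 15475021 to 15499751, minus strand) had a peak (15499798 to 15500357) with a signal of 27.6, with 13.7 in replicate 1 and 19.6 in replicate 2. Its summit lay 327 bp upstream of the Psmb1 start, on a UTR exon of Tbp, the TATA-binding protein, whose start on the opposite strand was the nearest. This peak can thus not be given to Psmb1 alone.

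Psmb3 is shown as a start with a peak of middling strength, in which the NF-Y motif occurs at 2 positions and the capitals mark these and a TGACG match.

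Psmb3, chr11:97703282-97703432: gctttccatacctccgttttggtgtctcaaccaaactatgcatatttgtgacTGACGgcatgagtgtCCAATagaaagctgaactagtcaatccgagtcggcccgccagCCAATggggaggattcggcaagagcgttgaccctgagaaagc

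Psme3 was the only activator with a summit at the start, and of the 8 genes its strongest peak was the weakest. Psme3 encodes a nuclear activator of the core (ENSMUSG00000078652.9, chromosome 11, 101316213 to 101323537, plus strand). The stronger of its peaks (101315647 to 101316206, summit 286 bp upstream) had a signal of 18.0, with 17.6 in replicate 1 and no peak of replicate 2 whose summit lay in it. The other (101316008 to 101316567, summit 75 bp downstream, on a UTR exon) had 11.6, with 7.19 and 6.61 in the libraries. Neither was in the conservative set, which had a summit at 6 of the 7 genes named above and at Psmb4 (signal 21.9) in place of Psme3. The remaining activators Psme1, Psme2, Psme2b and Psme4 had no summit within 1 kb. Psme1 and Psme2, which form an interferon-inducible activator and lie next to each other on chromosome 14, shared both of their summits within 50 kb, nearest to A730061H03Rik and Irf9.

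The core chaperone Psmg2 (ENSMUSG00000024537.5, chromosome 18, 67641599 to 67654162, plus strand) had a peak (67641207 to 67641766) with a signal of 36.3. Replicate 1 gave 17.2 and replicate 2 gave 9.98. Its summit lay 112 bp upstream of the start, in a promoter shared with Cep76 on the opposite strand. Psmg1, with which Psmg2 forms a dimer, had no optimal summit within 50 kb, but its start held a peak with a signal of 18.3 in replicate 2 (rank 3143) and 9.97 in replicate 1. Psmg3 and Psmg4 held a peak at the start in replicate 1 only, with 7.02 and 5.30.

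The peaks at proteasome starts were about as strong as those at other genes. The strongest peak per gene had a median signal of 38.5 over the 7 genes (quartiles 31.9 and 55.1) and of 37.6 over the 2215 protein-coding genes with a summit within 1 kb (quartiles 29.0 and 55.8). With Psmd5 included through its coding start, the medians were 41.7 and 37.4. The summits lay at a median of 112 bp from the gene start, beside 156 bp over all such genes. In all, 12 optimal peaks lay within 1 kb of a coding start of these genes, 9 of them with the summit upstream of the nearest such start. The 2 narrower than the full width of 560 bp were those of Psmd5, at 432 bp, which share their borders and thus are 1 locus. Of all promoter peaks 4.64% were narrow, and 82 of these 137 held the palindrome. Of the 12 peaks, 8 were also in the conservative set, beside 65.5% of all promoter peaks.

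The signals of these peaks were correlated between the libraries, but single peaks differed in rank. That of Psmg2, for example, ranked 4546 in replicate 1 and 19670 in replicate 2. Of the 12 promoter peaks, 11 had a matching peak in both libraries, and the ratio of replicate 2 to replicate 1 ran from 0.460 at Psmb3 to 1.60 at Psmd1 (median 1.15). Over all promoter peaks in both libraries the median ratio was 0.968 (quartiles 0.685 and 1.32). Across the 11 peaks Pearson's r of the log2 signals was 0.953 and Spearman's rho 0.843, beside 0.654 and 0.537 over 2590 promoter peaks. These are correlations across peaks, which are not independent. The overlapping peaks at Psmd5, at Psmb2 and at Psmd12 share a library peak, whose values thus enter more than once. The signals at proteasome genes span a wide range, from Psme3 to Psmd5, and those of all promoter peaks in the optimal set ran from 7.70 to 506.3. What the difference between these correlations comes from was not tested.

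Most other proteasome genes had a weak peak at the start. In the full list of replicate 1, 36 of the 50 genes had a summit within 1 kb of the gene start (72.0%), beside 44.6% of all protein-coding genes. In that of replicate 2 the count was 35 (70.0%), beside 39.6%. Both lists had a summit at 26 genes (52%), beside 28.9%. Among the 43 genes without an optimal summit, the strongest such peak had a median signal of 8.27 in replicate 1 (29 genes, 4.95 to 26.2) and of 7.85 in replicate 2 (28 genes, 4.60 to 18.3). Within each library these levels overlap with those of the 8 genes described above. Of the 8, Psmd5, Psmb2 and Psmb3 lay above all genes without an optimal summit in replicate 1, and Psmd5, Psmb2, Psmd1 and Psmb1 did so in replicate 2.

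The genes nearest to the strong group differed between the libraries. Psma3 had 26.2 in replicate 1 (rank 1256) and 6.91 in replicate 2. Psmc3ip had 17.9 and 8.08, Psme2 16.8 and 11.1, and Psmd6 15.5 and 4.71. These 4 were within the strongest 7737 peaks of replicate 1 only. In replicate 2 the genes within its strongest 7737 were Psmg1 with 18.3, Psmb6 with 16.4 and Psmb4 with 15.1, which had 9.97, 6.85 and 10.8 in replicate 1. Psma8, Psmb11, Psmd5, Psmd9 and Psme2b had no peak at the start of the gene record in either library. Counted from coding starts, only Psma8, Psmb11 and Psme2b had none, Psmd9 had 8.53 and 9.99, and Psmd5 had the signals given above. Psma8 and Psmb11 are the subunits of testis and thymus.

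Among the alpha subunits, which form the outer rings and the gate of the core, the weak peaks at the gene start were mostly in the list of 1 library. Psma1 had 6.73 in replicate 1 and 5.00 in replicate 2. Psma7 had 14.1, Psma4 8.38, Psma6 5.92 and Psma5 5.55 in replicate 1, with no peak in replicate 2. Psma2 had 6.51 in replicate 2 only. Apart from Psma3, 1 of these 6 subunits thus had a peak at the gene start in both libraries. From coding starts Psma6 also had one in both, with 8.17 and 5.82.

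The cap ATPases, which unfold the substrate, had weak peaks in both libraries at 4 of 6 genes. Psmc1 had 12.98 in replicate 1 and 8.30 in replicate 2, Psmc3 12.88 and 7.84, Psmc4 8.27 and 8.78, and Psmc6 6.38 and 10.03. Psmc5 had 9.71 and Psmc2 6.51 in replicate 2 alone.

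Of the non-ATPase subunits, Psmd7 had 12.4 and 4.99, Psmd13 4.95 and 8.68, Psmd11 6.10 and 6.36, and the deubiquitinase Psmd14 5.48 and 5.91 in replicates 1 and 2. Psmd3 had 10.75 in replicate 1 alone. In replicate 2 alone, the ubiquitin receptor Psmd4 had 11.85, Psmd2 9.73 and Psmd8 6.78. All of these lay below both values of Psmd1 and of Psmd12.

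The other groups were weak as well. The catalytic subunit Psmb7 had 12.96 and 4.60 in the libraries. The interferon-inducible catalytic subunits had a peak in 1 library each, Psmb10 with 7.29 and Psmb9 with 5.34 in replicate 1, and Psmb8 with 6.31 in replicate 2. The chaperone Psmd10 had 10.04 in replicate 2 and the activator Psme4 had 5.73 there. Psme1 had 6.37 and 7.86, and Psmf1 5.85 in replicate 1, with 9.36 in replicate 2 at a coding start away from the gene start.

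**Figure D3:**
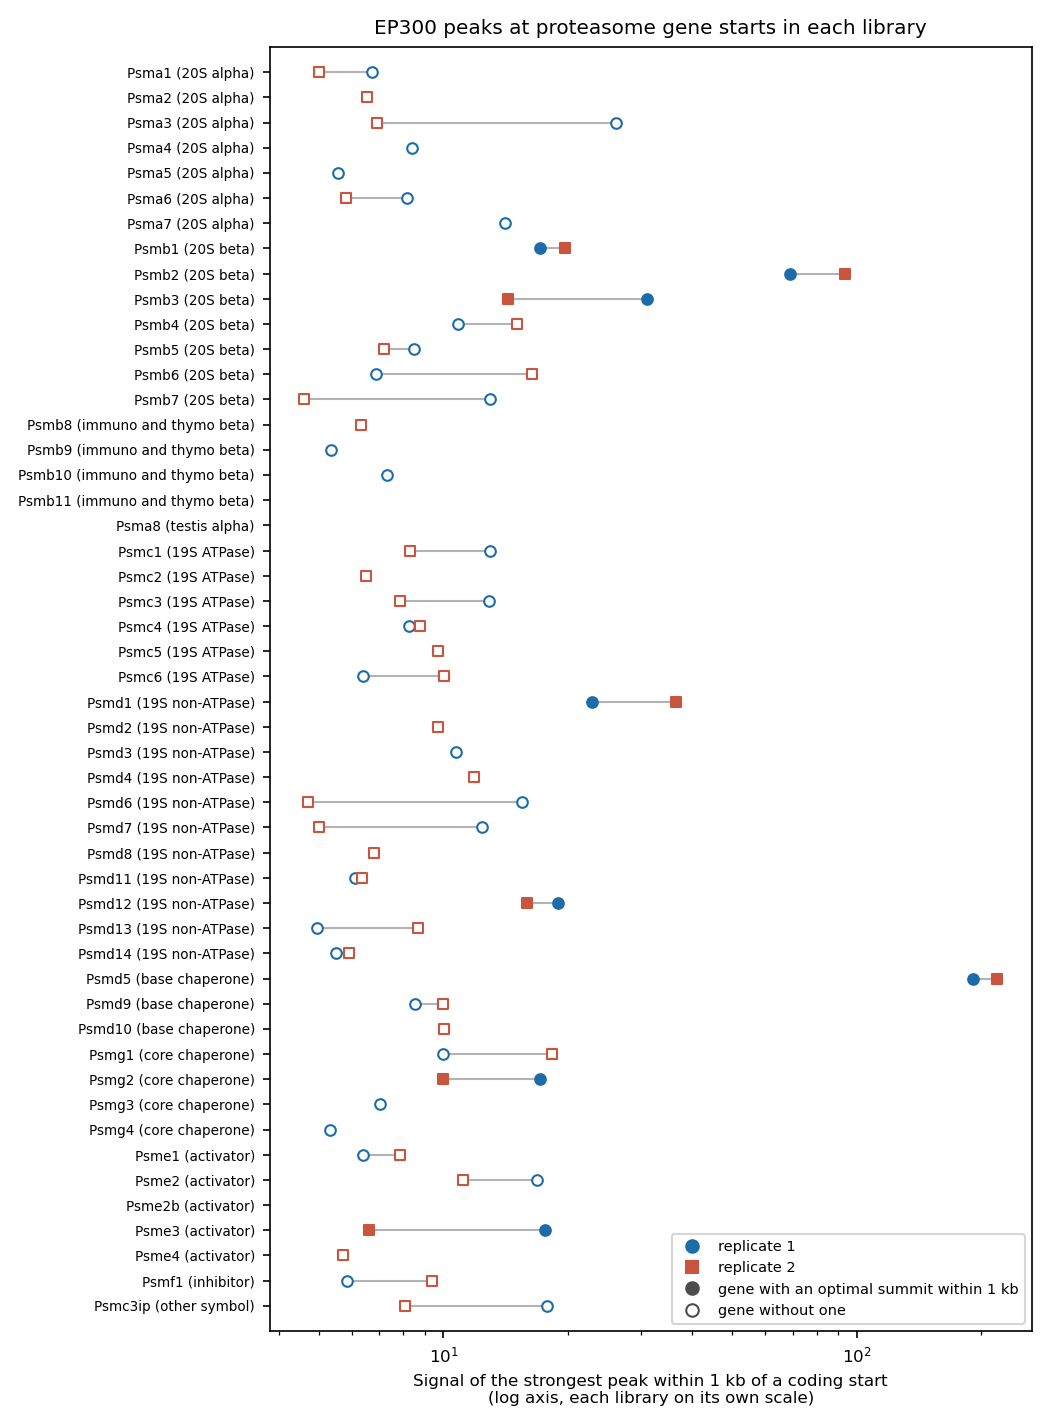
Signal (x axis, log scale, each library on its own scale) of the strongest peak of replicate 1 (circles) and replicate 2 (squares) within 1 kb of a coding transcript start of each of the 50 proteasome genes (y axis, with the role). Filled symbols are the 8 genes with an optimal summit, of which Psmd5 and Psmb2 lie to the right of all others, and a missing symbol means no peak in that library's list.

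Summits at a larger distance were mostly nearer to other genes. Within 50 kb of the gene start, 22 of the 50 genes had an optimal summit (44.0%), beside 34.9% of all protein-coding genes. When each summit was given only to the gene with the nearest start, 9 of the 50 had one, beside 16.4%. The 22 genes shared 47 peaks. By gene record starts, 34 of them, those at Psmd5 and Psmb1 included, were nearest to a gene outside the group. The strong Psmd5 summits nonetheless lay 67 and 271 bp from a coding start of Psmd5. Of the 47, 31 lay at a promoter of some coding gene, and these include the peaks at the group's own starts. Over all 7733 optimal peaks on named chromosomes, 2952 lay within 1 kb of a coding start. The 47 were chosen for lying near a gene start and the 7733 were not, so the shares are not a like comparison. The median distance from a gene start to the nearest optimal summit was 58760 bp, beside 103000 bp over all genes on chromosomes with peaks.

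Most distant peaks were nearest to the start of a neighbour, and a few to that of the proteasome gene itself. Of the 47 peaks within 50 kb, 16 lay at no promoter of a coding gene. The strongest distant peak lay 41207 bp downstream of the Psma3 start, nearest to Arid4a. Its signal was 105.1 (43.7 in replicate 1, 64.3 in replicate 2). Psmd9 had the most summits by gene record, 7, nearest to the starts of Setd1b and Rhof, with signals from 8.19 to 55.8. They lay 28123 to 33807 bp upstream of the start of the gene record. From the nearest coding start of Psmd9 they lay 86900 to 92584 bp upstream, so none was within 50 kb of a coding start. Psmc5 had 4, nearest to the starts of Ddx42 and Smarcd2. Nearest to the proteasome gene were a summit in an intron of Psma6, 1993 bp from the start (signal 26.7, with 5.46 and 18.7 in the libraries), and another 49743 bp downstream of it (39.0, with 17.5 and 22.2). The others of this kind were a summit in an intron of Psmc1, 12719 bp downstream (30.1, with 10.3 and 14.8), and one 7827 bp upstream of Psmc3ip, in an intron of Retreg3 (42.4, with 18.4 and 21.5). The Psma6 summit at 1993 bp was the first beyond the limit of 1 kb, and that of Psmb1 at 327 bp was the farthest strongest summit within it. No optimal summit lay within 50 kb of 28 of the genes, and for 15 genes, among them Psmb4, Psmb7, Psmc2, Psmd14 and Psmf1, none lay within 100 kb.

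**Figure D4:**
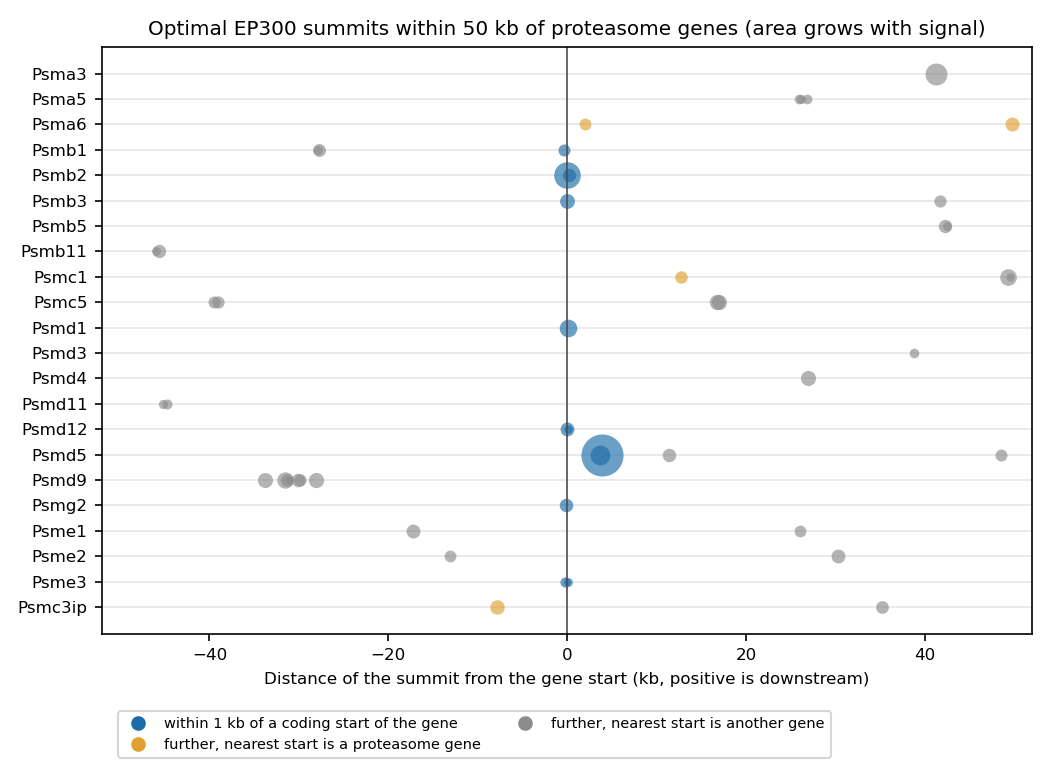
Distance of optimal EP300 summits from the gene start (x axis, kb, downstream positive) for the 22 proteasome genes with a summit within 50 kb (y axis), with the area of a point growing with signal. The points at the start belong to the genes named in the text, Psmd5 appears 3.9 kb inside its gene record, and most points further away (grey) are nearest to another gene.

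Proteasome promoters were rich in CpG dinucleotides, as those of genes active in every cell often are. In the window from 250 bp before to 50 bp after the gene start, the ratio of observed to expected CpG had a median of 0.753 over the 50 genes, beside 0.525 over all protein-coding genes and 0.812 over those with a summit within 1 kb. It was 0.783 for the 7 proteasome genes with a summit and 0.747 for the 43 without. Among genes with a ratio of at least 0.6, a limit set after the values were seen, 6 of 34 proteasome genes had an optimal summit within 1 kb (17.6%), beside 18.2% of all 9734 such genes. Summits of both full library lists were at 20 of the 34 (58.8%), beside 46.0%. An opposite coding start lay within 1 kb of 12 of the 50 genes (24.0%), beside 10.9% of all. Among genes rich in CpG this held for 9 of 34 (26.5%), beside 19.8% of all such genes. Of the 7 with a summit it held for 2, Psmb1 and Psmg2, beside 27.7% of all genes with a summit.

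Of the 15 motifs searched, the ETS motif had the largest difference in share between proteasome and all promoters. It was in the windows of 2 of the 7 proteasome genes with an optimal summit and of 15 of the 43 without. CCGGAAG, on either strand, was in 17 of the 50 windows (34.0%), beside 10.8% of all protein-coding promoters. Of all those with a summit within 1 kb, 22.2% held it. Among genes rich in CpG it was in 15 of 34 (44.1%), beside 19.4% of all such genes. Of the 17 genes, Psmd12 and Psme3 had a summit within 1 kb, and 4 were ATPases of the cap, Psmc1, Psmc2, Psmc3 and Psmc6. The shorter cyclic AMP response site TGACG was in 19 windows (38.0%, beside 23.1% of all), and in 5 of the 7 with a summit (beside 37.3% of all with one). The YY1 motif AAGATGGCG was in 3 windows (6.00%, beside 1.70%), those of Psmb6, Psmc5 and Psmd7. The AP-1 motif TGANTCA was in none of the 50 windows, beside 6.91% of all, and in 5 of the wider windows from 500 bp before to 100 bp after the start, beside 13.6% of all. Among genes rich in CpG, TGACG was in 47.1% of proteasome windows, beside 36.2% of all. In the same set YY1 was in 8.82%, beside 3.35%, and AP-1 was in none, beside 3.42%.

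The antioxidant response element TGACNNNGC was in 6 of the 50 windows (12%), those of Psmb2, Psmb5, Psmb6, Psmc6, Psmd7 and Psmd12, beside 12.5% of all promoters. In the wider window from 500 bp before to 100 bp after the start it was in 16 (32.0%), beside 21.5%. In the shorter window the NF-Y motif was in 19 (38.0%, beside 39.0%) and the KLF and SP motif in 21 (42.0%, beside 31.5%). Among genes rich in CpG the KLF and SP shares were 55.9 and 54.3%. The palindrome was in 1 window, that of Psmb2 (2.00%, beside 0.898% of all and 7.22% of those with a summit). This count misses the palindrome at the coding start of Psmd5, which lies outside the window of its gene record. The E-box CACGTG was in 6 windows (beside 7.75% of all), the interferon motif GAAANNGAA in 6 (beside 8.47%) and the STAT motif TTCNNNGAA in 6 (beside 8.39%). The NRF1 motif GCGCATGCG and the full cyclic AMP element TGACGTCA were in 2 each (beside 2.48% and 2.43%). The heat shock motif GAANNTTC was in 2 as well (beside 7.56%), and the kappa B motif GGGANTTTC in 1 (beside 1.16%). TGACG overlaps with the full element, and matches of the latter and of the antioxidant element can share bases with it. All these windows lie at gene record starts, which for Psmd5 and Psmd9 are away from the coding starts.

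Sites of the ETS motif and of the antioxidant element are shown with 10 bases on each side, on the strand of the gene, with the motif in capitals; CTTCCGG is the ETS motif on the opposite strand and GCTGTGTCA the antioxidant element on it. They were chosen after their values were seen, to show the motif near the start at genes with and without an EP300 summit.

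Psmd12, ETS, chr11:107479501-107479527: gagcgggcgaCTTCCGGtgcgagtgac

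Psme3, ETS, chr11:101316205-101316231: tgtgacgcaaCTTCCGGcgtgagcggc

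Psmd6, ETS, chr14:14120974-14121000: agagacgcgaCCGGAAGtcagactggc

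Psme4, ETS, chr11:30771712-30771738: tggccccgccCCGGAAGtgacttgagg

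Psmb5, antioxidant element, chr14:54618024-54618052: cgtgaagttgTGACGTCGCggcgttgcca

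Psmb6, antioxidant element, chr11:70525338-70525366: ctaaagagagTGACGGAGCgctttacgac

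Psmd12, antioxidant element, chr11:107479271-107479299: gagatgttctGCTGTGTCAcatttgcccc

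The sites of Psmb5 and Psmb6 began 20 and 19 bp upstream of the gene start, and both genes lacked an optimal summit within 1 kb. Psmb6 had a peak of 16.4 in replicate 2 and of 6.85 in replicate 1, and Psmb5 had 7.19 and 8.50 in the same order.

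**Figure D5:**
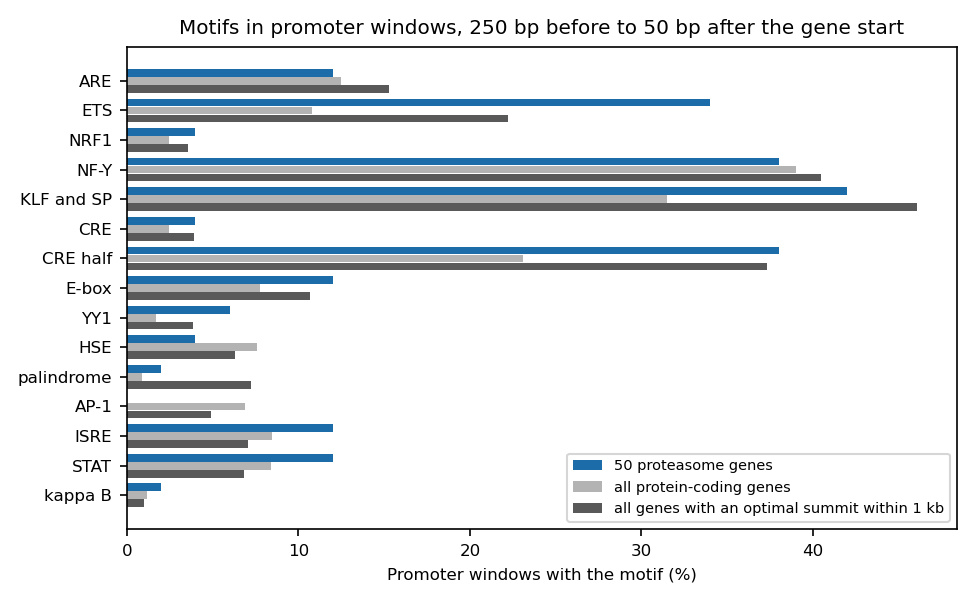
Percent of promoter windows (x axis) that hold each of 15 motifs (y axis), for the 50 proteasome genes, all protein-coding genes and all genes with an optimal summit within 1 kb. The ETS bar of the proteasome genes, at 34.0%, lies above both others, and no proteasome window of this length holds the AP-1 motif.

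Regulators and cofactors of the proteasome were counted in a list of 29 annotated genes. Of these, 8 had an optimal summit within 1 kb (27.6%, exact 95% binomial interval 12.7 to 47.2), beside 10.1% of all protein-coding genes and 7 of the 50 above. The difference between the lists was not tested. Among all genes rich in CpG (ratio of at least 0.6) the share was 18.2%, and the regulators were not counted within that background. In the stronger part of the optimal set (3868 peaks) the count was 4, beside 7.12% of all genes, and within 500 bp of the start it was 5, beside 8.90%. By coding starts the count was 10 (34.5%), with Uba1 and Txnl1 added. Among the genes counted were Ubb and Rps27a, which encode ubiquitin, the deubiquitinase Uchl5, the ubiquitin-binding shuttle factor Ubqln1, the segregase Vcp, the nuclear import factor Akirin2 and the stress factor Nfe2l2. Ubb alone had 4 overlapping or adjacent peaks at the start.

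The strongest of these peaks lay at Rps27a, which encodes a fusion of ubiquitin and a ribosomal protein. Its signal was 66.2, with 21.99 in replicate 1 and 36.9 in replicate 2, in a promoter shared with Clhc1. Ubb had 43.8 (28.2 and 20.1 in the libraries). Nfe2l2, a relative of Nfe2l1 that binds the same element, had 43.3 (30.3 and 19.5), with the summit 790 bp downstream of the start, in an intron. Akirin2 had 32.6 (14.6 and 17.2), Vcp 28.7 (17.1 and 11.8) and Ubqln1 28.6 (10.6 and 16.2). Nfe2l1 itself had no optimal summit within 50 kb, and the peak at its start had 14.9 in replicate 1 and 9.39 in replicate 2. The assembly factor Pomp, the cap subunits Adrm1 and Sem1 and the deubiquitinase Usp14 had none within 1 kb, and that nearest to Adrm1 lay 1173 bp from the start.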

How the data were processed

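EP300 was measured in 2 libraries that form 1 group. The authors deposited 5 peak lists in narrowPeak layout on mm10, per the deposited readme texts: 1 for each library, 1 made on both libraries pooled, and the IDR-filtered lists called optimal and conservative. The deposited signal is the peak caller's value. The deposited q column was treated as a score and not used, and the deposited summit is an offset from the peak start. For the peak caller and aligner, names and versions were not given in the sources used here. Full lists end at 300000 peaks, so their length says nothing of depth.

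A library's signal at an optimal peak is that of its strongest peak with the summit inside. Gene starts are 5′ ends of GENCODE M21 gene records, and sequence came from GRCm38.p6. A summit is called intronic where it lies inside a gene record but outside the exons of coding transcripts. Exons of non-coding transcripts were not used. Of the 50 genes, 42 have a start in the RefSeq promoter table, used as an alternative. Shares over the genes stand beside those over all 21951 records, without tests. Counting and motif search were tested on simulated data (Python 3.11.15, numpy 2.4.6, pysam 0.24.0).

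Genes, lists and motifs were chosen with earlier results of these data known. Values per library were to be given for the 12 strongest and 4 weakest genes with a summit within 1 kb and for chaperones, activators and immunoproteasome genes with one. Only 8 genes had one by coding start. The regulators named are the 6 strongest, Nfe2l1 and Nfe2l2. The windows of 151 bp, the motif sites shown, the background rich in CpG, the palindrome by strength and the other regulators were chosen after their values were seen. Of 32 regulator symbols, 3 (2 of them older symbols) were not in the annotation. Values of 1 regulator are not reported here.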

Additional observations from a re-analysis of the deposited data

How the results depend on the processing

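The count of 7 genes with a summit within 1 kb lay between 5 and 10 under all 12 alternatives, beside shares over all genes from 7.12 to 12.2%. It was 7 in the conservative set, 8 with RefSeq starts (added after the data were seen), and 8 and 10 in the strongest peaks of replicate 2 and of replicate 1 alone. The count of 22 within 50 kb moved to 9 with nearest starts only, 10 within 10 kb and 35 within 100 kb (beside 16.4, 15.7 and 49.1% of all genes). That of 8 regulators fell to 4 in the stronger part of the optimal set and 5 within 500 bp. The median signal of 38.5 was 41.7 with coding transcript starts and with nearest starts only, 37.4 within 2 kb and 35.5 over all peaks. The median percentile within its list was 72.7 in the optimal set, 70.0 in the conservative set, 67.1 in the strongest pooled peaks, and 51.7 and 52.8 in the strongest peaks of replicate 2 and replicate 1 alone. Of 15 motifs, 11 had a higher share than in all promoters. Within 100 bp of the strongest summits of the 7 genes, 7 motifs had a higher share than at those of all 2215 genes with a summit. Of these, the antioxidant element, the full cyclic AMP element, the palindrome and the interferon motif each rested on 1 gene. The ETS share there was 14.3%, beside 15.3%. No paired analysis was possible because there is only 1 group.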
